A study of Mus musculus with 16 samples.

Results

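Immediate early genes are genes that cells transcribe within minutes of a stimulus, before new protein is needed. A set of 32 immediate early and stress response genes, among them Fos, Jun, Egr1, Atf3, Dusp1 and Btg2, was followed in hippocampal microglia of old and young mice. They were taken by symbol from the deposited table of 24015 genes, and all 32 were present. RNA was sequenced from aged microglia, from mice 20 months old, and from young microglia, from mice 3 months old, with 6 samples of each age. The strain label was C57BL/6, except for aged 5 and aged 6, whose labels read C57BL/7 and C57BL/8 or C57BL/9. No treatment or modified allele is given for either age. After perfusion the hippocampi were dissected, dissociated with a dounce, cleared of myelin magnetically and sorted for live cells with CD11b and low CD45. Whether a sample was 1 mouse or a pool is not stated, so each p-value rests on the variation among these samples alone, which may in part be technical.

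Most of these genes are switched on by kinase cascades that end on factors already present in the cell, such as serum response factor and CREB. Their products are transcription factors, phosphatases and other inhibitors that shut the cascades off again, and proteins that shorten the life of mRNAs. In microglia the programme responds to injury, cytokines and nucleotides, and it is also known to be raised by the isolation of cells from tissue.

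The promoters of 3 of the genes are shown because the results turn on these genes. Btg2 was the only one of the 32 that passed the test of age, and its promoter was chosen after its values were seen. Fos was the gene with the largest age difference in log2 units and the one against which the others were correlated, and Dusp1 had the highest correlation with Fos. Each sequence runs 5′ to 3′ from 250 bases before to 50 bases after the RefSeq start site in GRCm38.p6. Capitals mark the cAMP response element TGACGTCA or its core TGACG, the EGR site GCGNGGGCG and the TATA box TATAAA. Btg2 lies at chr1:134079106-134079405 on the minus strand, Fos at chr12:85473640-85473939 on the plus strand and Dusp1 at chr17:26508423-26508722 on the minus strand.
Btg2: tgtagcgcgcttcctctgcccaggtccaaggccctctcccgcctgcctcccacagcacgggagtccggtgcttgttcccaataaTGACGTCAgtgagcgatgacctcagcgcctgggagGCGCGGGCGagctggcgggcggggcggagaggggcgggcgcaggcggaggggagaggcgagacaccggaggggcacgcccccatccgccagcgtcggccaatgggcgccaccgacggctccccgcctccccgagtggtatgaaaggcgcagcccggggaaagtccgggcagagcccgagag
Fos: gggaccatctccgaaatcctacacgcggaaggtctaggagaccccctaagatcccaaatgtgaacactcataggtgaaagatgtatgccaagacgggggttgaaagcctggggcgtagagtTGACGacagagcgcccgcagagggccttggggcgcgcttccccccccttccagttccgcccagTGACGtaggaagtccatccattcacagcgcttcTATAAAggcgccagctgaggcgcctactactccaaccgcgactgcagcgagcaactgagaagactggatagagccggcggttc
Dusp1: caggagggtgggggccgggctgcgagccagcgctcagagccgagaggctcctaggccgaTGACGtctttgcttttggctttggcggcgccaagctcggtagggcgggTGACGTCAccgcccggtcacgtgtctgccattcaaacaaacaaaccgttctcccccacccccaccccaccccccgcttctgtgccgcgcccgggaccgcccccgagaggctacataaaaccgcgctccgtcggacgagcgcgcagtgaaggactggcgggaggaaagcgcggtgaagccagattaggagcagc

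The Btg2 window holds a full cAMP response element at -166 and an EGR site at -131, counted from the start site. The Fos window holds the core at -129 and at -66 and the TATA box at -33. The Dusp1 window holds the full element at -143 and a further core at -191. RefSeq promoters were matched for 28 of the 32 genes, and motifs were searched on both strands. The other 4, Egr1, Egr3, Nfkbiz and Ier2, had no promoter to search. A gene was counted if any of its promoters, at most 5, held the motif, while the shares given beside are of single windows. The counts and shares are thus unlike measures, since a gene with several promoters has more chances of a match. The full element was found in 3 of the 28, Dusp1, Ppp1r15a and Btg2, against 1.79% of all 32817 promoter windows of the same length. Its core, which every full element contains, was found in 15 of 28, against 20.8% of all windows. The EGR site was found in 11 of 28, against 5.56% of all windows. The TATA box was found in 8 of 28, against 13.6%. The AP-1 site TGANTCA was found in 1, Zfp36l1, against 7.81%, and the serum response element (CArG box) in 2, Egr2 and Zfp36, against 1.63%. These are matches of letters and not measured binding, and sites outside the windows were not searched.

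The deposited values were normalized counts, reads per gene scaled by a factor for each sample. Depth was 11.4 to 47.3 M reads in the 8 samples with 1 library and an estimated 52.1 to 58.2 M reads in the 4 samples with 2 technical libraries (M stands for 1e+06). Summed microglial markers, such as P2ry12, Tmem119 and Csf1r, came to 1633430 to 1841960 normalized counts in aged samples and 1801830 to 2055770 in young samples. Summed neuronal markers stayed at 222 to 425 in aged and 266 to 420 in young samples. Summed astrocyte markers were at 5610 to 7616 in aged and 5483 to 7027 in young samples. Slc1a3 made up most of this sum, with 5510 to 7259 in aged and 5380 to 6922 in young samples. Among the less abundant markers, Aldh1l1 averaged 57.2 in aged and 19.4 in young samples. It was called higher with age by limma (adjusted p = 0.0411). Gfap averaged 42.8 in aged and 20.9 in young samples, and Aldoc 73.0 in aged and 48.8 in young samples. Slc1a3, Gfap and Aldoc were not called by limma, though their means were also higher in aged samples. Whether these levels had a part in the results was not tested. For several of the 32 genes aged 4 stood apart from the other samples, and the log2 fold changes of those in which it was highest are given with and without it.

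Levels of the 32 genes differed widely. Per kilobase of merged exons, Rhob, which encodes a small GTPase of the actin cytoskeleton, averaged 5331 normalized counts in aged and 5247 in young samples. Dusp6, the phosphatase that inactivates ERK kinases, averaged 4051 per kilobase in aged and 4308 in young samples. Btg2 was next, with 2682 per kilobase in aged and 3349 in young samples, followed by Junb with 2672 in aged and 2555 in young samples. Nfkbia averaged 2176 per kilobase in aged and 2099 in young samples. Egr1 stood far lower, at 86.1 per kilobase in aged and 78.4 in young samples, as did Fos, at 52.2 in aged and 11.6 in young samples. Nr4a2 averaged 2.98 per kilobase in aged and 1.53 in young samples. The set thus holds both abundant transcripts and transcripts with few reads.

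**Figure D1:**
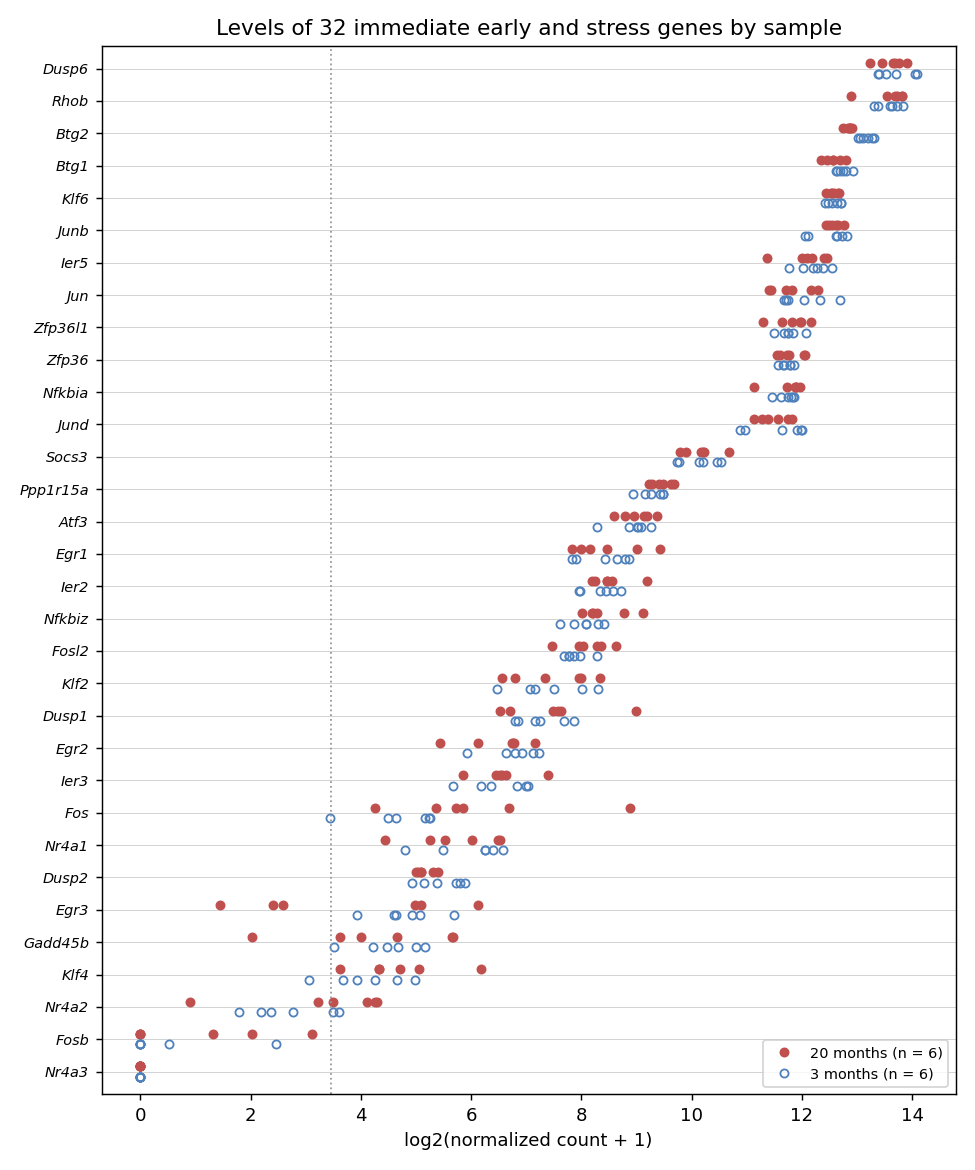
Level of each of the 32 genes in each sample as log2(normalized count + 1), with aged samples (20 months) as filled red points above young samples (3 months) as open blue points, 6 per age, and genes ordered by level. The dotted line stands at 10 normalized counts. The ages overlap for every gene shown with reads except Btg2, and Nr4a3 stands at 0 throughout.

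The age test was run on genes with 10 or more normalized counts in 6 or more samples, and 30 of the 32 genes met this. Nr4a3, an orphan nuclear receptor, was listed at 0 in all 12 samples. A count of 0 allows up to 3 reads, which is 0.0515 to 0.263 per M reads over the samples, for counting error only. Fosb, an AP-1 subunit, reached at most 7.68 normalized counts in aged samples, with a median of 0.737, and 4.53 in young samples, with a median of 0. Fosb was at 0 in aged 1, aged 2 and aged 3, and its ages overlapped.

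With age, Btg2 fell, and none of the other 29 tested genes passed the test in either direction. Btg2 is an antiproliferative protein that binds the deadenylase complex and promotes mRNA decay. Its lowest, median and highest values were 6844, 7416 and 7689 normalized counts in aged samples, against 8333, 9115 and 10163 in young samples. The highest aged sample lay below the lowest young sample, so the ages did not overlap. Mean levels were 7357 ± 289 in aged and 9186 ± 768 in young samples (SD, n = 6 each). The fold of aged over young was 0.803, a log2 fold change of -0.32 (SE 0.065, 95% interval -0.45 to -0.18, adjusted p = 0.015, limma). In these RNA pools of sorted cells, fewer cells with a transcript and less of it per cell cannot be told apart.

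Of the 30 tested genes, 0 were called higher and 1 lower at an adjusted p of 0.05, against 1.27% higher and 0.458% lower among all 11579 genes tested. Only Btg2 had ages that did not overlap, against 1.87% of all tested genes. At an unadjusted p under 0.05, 2 of the 30 passed, Btg2 and Fos, against 1253 of 11579. The log2 fold change was above 0 for 18 and below 0 for 12 of the 30, with a median of 0.04, against 0.0016 over all tested genes. The Btg2 call was kept in each of the 12 fits that left out 1 sample, with a log2 fold change of -0.34 to -0.29 and an adjusted p of 0.0117 to 0.0488. In the 8 samples with 1 library the log2 fold change was -0.36, with an adjusted p of 0.0514 by limma, 0.0593 by edgeR and 0.00147 by DESeq2, so the call depended on the tool there.

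**Figure D2:**
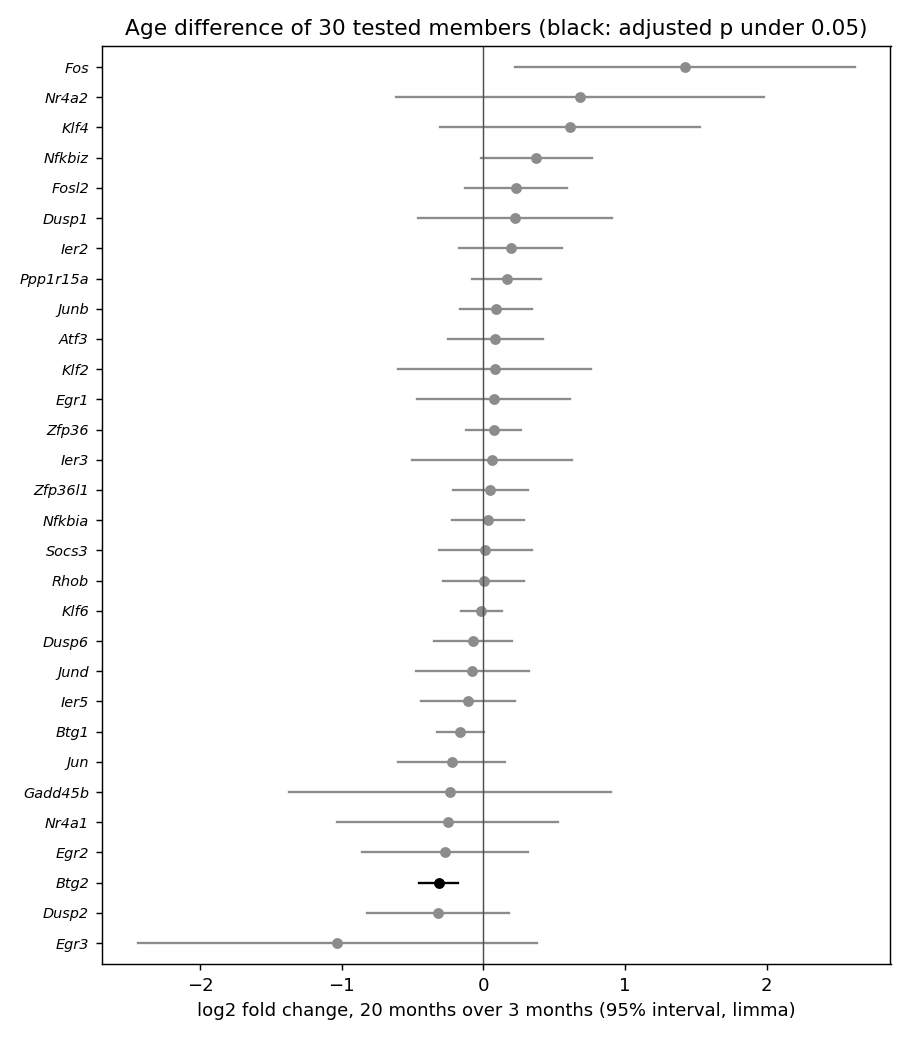
Log2 fold change of aged over young microglia for the 30 tested genes, with 95% intervals from limma. Btg2, in black at -0.32, has an adjusted p under 0.05, while the intervals of Fos, Egr3, Nr4a2 and Gadd45b are the widest.

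Among the AP-1 and ATF factors, which pair as leucine zipper dimers on DNA, 6 of 7 were tested and none was called. Fos, the best known of them, ranged from 18.1 over a median of 54.1 to 469 normalized counts in aged samples, against 9.83, 29.2 and 37.0 in young samples. Aged 4 alone held the 469, the next aged sample had 102, and the ages overlapped. The means were 123 ± 172 in aged and 27.3 ± 10.9 in young samples (SD, n = 6 each). The log2 fold change was 1.42 (95% interval 0.23 to 2.62), with an unadjusted p of 0.0226 and an adjusted p of 0.325 in limma. Without aged 4 it was 0.87, an average 1.83-fold difference, with an adjusted p of 0.508 in limma. Over the other fits that left out 1 sample it reached at most 1.80, without aged 2. In the 8 samples with 1 library it was 1.02 by limma, 2.17 by edgeR and 2.16 by DESeq2, with adjusted p-values of 0.728 by limma and 0.374 by edgeR and none given by DESeq2.

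Jun, the main partner of Fos, ran the other way in sign. Its lowest, median and highest values were 2702, 3487 and 5016 in aged samples, against 3269, 3826 and 6610 in young samples, and the ages overlapped. The log2 fold change of Jun was -0.23 (adjusted p = 0.771, limma). Fosl2, a Fos relative with slower kinetics, had 177, 285 and 396 in aged samples against 204, 225 and 309 in young samples, with a log2 fold change of 0.23 (adjusted p = 0.746, limma). Atf3, a repressor induced by many stresses, had 383, 525 and 664 in aged samples against 309, 514 and 613 in young samples (log2 fold change 0.08, adjusted p = 0.923, limma). The ages overlapped for both genes. Junb, which restrains Jun in many cells, averaged 6148 ± 504.3 in aged and 5879 ± 1261 in young samples (log2 fold change 0.09). Jund, the Jun protein that is present without stimulation, averaged 2907 ± 539 in aged and 3179 ± 1017 in young samples (log2 fold change -0.08). Over all transcripts, exons of 7 of the 32 genes, Jun, Junb, Jund, Dusp1, Ppp1r15a, Zfp36 and Zfp36l1, overlap a gene on the opposite strand. Libraries of this kind do not keep the strand, so reads of either gene cannot be told apart there.

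**Figure D3:**
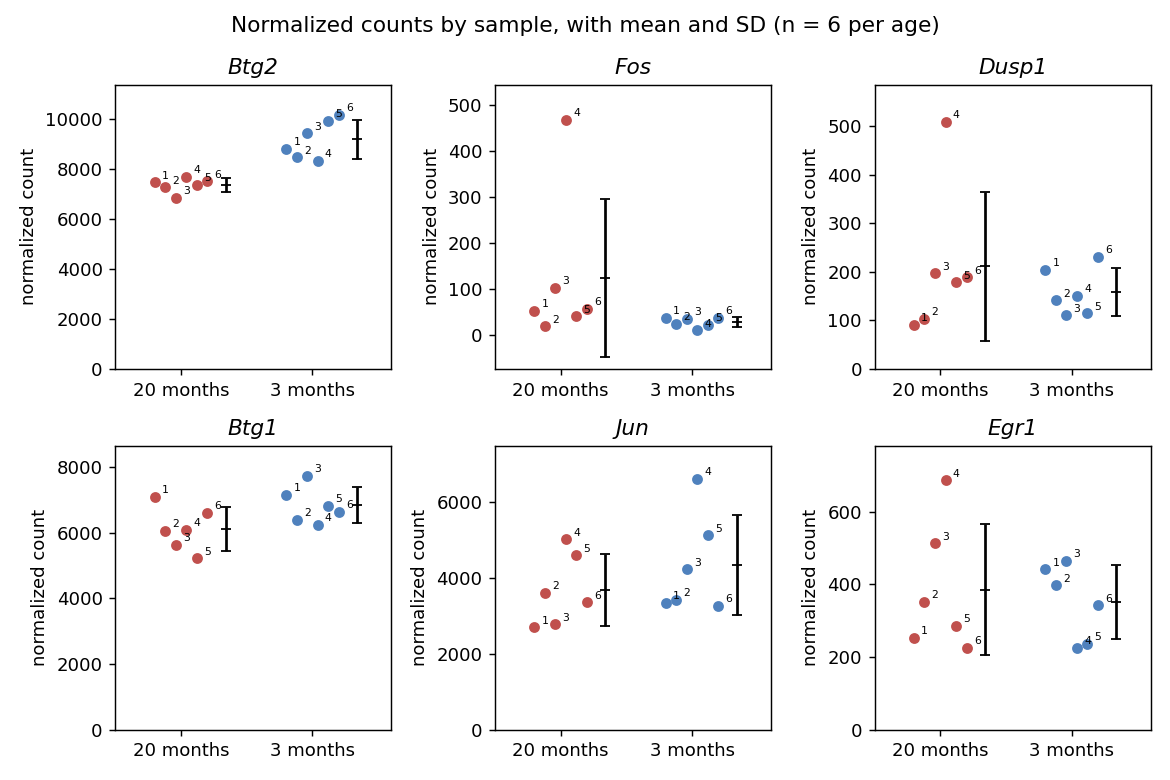
Normalized counts in each sample for Btg2, Fos, Dusp1, Btg1, Jun and Egr1, aged (20 months) left of young (3 months), with the sample number beside each point and bars for the mean and SD over 6 samples. Btg2 is the only one whose ages are apart, and in Fos and Dusp1 aged 4 stands alone at 469 and 509, which takes the SD bar of Fos below 0.

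Zinc finger factors and orphan nuclear receptors make up 9 of the 32 genes. None of the 8 tested was called, and 4 log2 fold changes were above and 4 below 0. Egr1, a factor that reads out growth factor and synaptic signals, had 226, 319 and 687 as its lowest, median and highest values in aged samples, against 226, 370 and 464 in young samples. Aged 4 was again the highest of all 12 samples, and the ages overlapped (log2 fold change 0.07, adjusted p = 0.96, limma). Egr2, a relative of Egr1, had 42.4, 107 and 142 in aged samples, against 59.99, 116 and 150 in young samples (log2 fold change -0.27, adjusted p = 0.838, limma). Egr3 varied most of the 30 tested genes, with 1.73, 17.9 and 69.0 in aged samples against 14.1, 26.6 and 50.5 in young samples. Of its 6 aged values 3 were at most 5.03 and 3 at least 30.7, so the ages overlapped, and the log2 fold change was -1.03 (adjusted p = 0.679, limma).

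Klf4, a factor of macrophage differentiation and anti-inflammatory tone, had 11.3, 22.2 and 71.8 in aged samples, against 7.37, 16.2 and 30.4 in young samples. The ages overlapped, with aged 3 highest, and the log2 fold change was 0.61 (adjusted p = 0.731, limma). Klf2, known from quiescent lymphocytes and endothelium, averaged 198 ± 90.5 in aged and 185 ± 84.1 in young samples (log2 fold change 0.08). Klf6, an injury-induced factor, averaged 6081 ± 372 in aged and 6150 ± 503 in young samples (log2 fold change -0.01). Nr4a2, or Nurr1, a repressor of inflammatory genes in glia, had 0.865, 13.2 and 18.7 in aged samples, against 2.46, 4.98 and 11.1 in young samples. Only 6 of the 12 samples reached 10 normalized counts, and the log2 fold change was 0.68 with overlapping ages (adjusted p = 0.809, limma). Nr4a1, or Nur77, a receptor of activated lymphocytes and macrophages, averaged 57.7 ± 28.4 in aged and 66.4 ± 25.6 in young samples (log2 fold change -0.25).

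Feedback inhibitors were the next group, with all 7 tested and none called. Dusp1, the phosphatase that inactivates the stress kinases, had 90.8, 183 and 509 as its lowest, median and highest values in aged samples, against 110, 146 and 231 in young samples. The 509 was aged 4, the next aged sample had 197, and the remaining values of both ages overlapped. The log2 fold change was 0.22 (adjusted p = 0.894, limma), and without aged 4 it was -0.08 (adjusted p = 0.966, limma). Over all its annotated transcripts, exons of Dusp1 overlap those of Ergic1 on the other strand. Which Dusp1 transcripts share them was not examined. Ergic1 had 3895 normalized counts in aged 4, the 5th highest of the 12 samples. This total does not separate reads of the shared exons, and their part in the Dusp1 values was not tested.

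Nfkbia, which encodes the inhibitor that holds NF-kappaB in the cytoplasm and is itself an NF-kappaB target, had 2250, 3789 and 3998 in aged samples, against 2800, 3505 and 3702 in young samples (log2 fold change 0.03, adjusted p = 0.96, limma). The lowest of the 12 was aged 5 and the highest aged 4. Nfkbiz, a nuclear relative needed for secondary inflammatory genes such as Il6, had 255, 303 and 556 in aged samples, against 194, 270 and 337 in young samples. Its log2 fold change was 0.37 (adjusted p = 0.494, limma), and only aged 4 and aged 5 lay above all young samples. Without aged 4 it was 0.23 (adjusted p = 0.743, limma). Ppp1r15a, which directs a phosphatase to restart translation after stress, had 598, 695 and 819 in aged samples against 486, 648 and 715 in young samples (log2 fold change 0.16, adjusted p = 0.724, limma). Dusp2, a phosphatase of activated immune cells, had 30.8, 33.0 and 41.2 in aged samples against 29.3, 46.0 and 57.8 in young samples (log2 fold change -0.32, adjusted p = 0.746, limma). For Ppp1r15a and Dusp2 the ages overlapped. Dusp6 averaged 12687 ± 1985 in aged and 13492 ± 3000 in young samples (log2 fold change -0.08). Socs3, an inhibitor of cytokine receptor signalling, averaged 1163 ± 265 in aged and 1154 ± 262 in young samples (log2 fold change 0.01).

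The mRNA decay and growth arrest genes held the Btg2 call, 1 of 5 tested. Btg1, the close relative of Btg2 and also an adaptor of the deadenylase complex, had 5223, 6070 and 7102 normalized counts in aged samples, against 6244, 6736 and 7741 in young samples. The ages overlapped, although 4 aged samples lay below every young sample. The log2 fold change of Btg1 was -0.16 (95% interval -0.33 to 0.0028, adjusted p = 0.477, limma). Zfp36, or tristetraprolin, which binds AU-rich mRNAs of cytokines and marks them for decay, had 3006, 3453 and 4262 in aged samples against 3037, 3380 and 3711 in young samples (log2 fold change 0.07, adjusted p = 0.879, limma). Its ages overlapped, with aged 4 and aged 6 above every young sample. Zfp36l1, a relative with the same binding preference, averaged 3657 ± 731 in aged and 3500 ± 478 in young samples (log2 fold change 0.05). Gadd45b, a stress-induced growth arrest gene, averaged 25.5 ± 20.0 in aged and 23.3 ± 8.87 in young samples (log2 fold change -0.24). These run opposite ways, since the fold change averages log2 values, in which the low aged 5, at 3.08, weighs more. Without aged 5 the log2 fold change of Gadd45b was 0.21.

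Of the other 4 immediate early products none was called. Ier2, a nuclear protein induced by growth factors, had 292, 353 and 586 in aged samples, against 246, 334 and 418 in young samples. The highest was aged 4, the ages overlapped, and the log2 fold change was 0.19 (adjusted p = 0.808, limma). Without aged 4 it was 0.06 (adjusted p = 0.958, limma). Ier3, a regulator of cell survival, averaged 98.8 ± 36.9 in aged and 95.1 ± 32.5 in young samples (log2 fold change 0.06). Ier5, known to promote the activity of heat shock factor, averaged 4468 ± 1070 in aged and 4756 ± 878 in young samples (log2 fold change -0.11). Rhob averaged 12522 ± 2604 in aged and 12325 ± 1699 in young samples (log2 fold change 0.0020). The 12 genes given by their mean and SD (n = 6 per age), Junb to Rhob, had adjusted p-values of 0.885 to 0.998 in limma.

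The spread between samples of the same age was wide for these genes. The median SD of the log2 values within an age was 0.34 over the 30 tested genes, against 0.22 over all tested genes. Among those with a mean of 1000 normalized counts or more, 10 of 13 lay above the median SD of 0.15 of the 4548 tested genes at such levels. Among those below 1000, 16 of 17 lay above the median SD of 0.29 of 7031 genes. Btg2 stood at the low end, with an SD of 0.094 that exceeded that of only 3.99% of tested genes. Fos stood at the high end, with 1.21, above 98.4% of tested genes, and Egr3, Gadd45b and Nr4a2 had SDs of 1.38, 1.06 and 1.05.

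One sample stood highest for many of the genes. Aged 4 was the highest of the 12 samples for 10 of the 30 tested genes, Fos, Atf3, Egr1, Nr4a2, Dusp1, Socs3, Nfkbia, Nfkbiz, Ier2 and Ier3, and also for the untested Fosb. Over all tested genes it was the highest for 7.77%. It lay above the mean of its age for 25 of the 30 genes, against 51.4% of all tested genes, with a median deviation of 0.24 on the log2 scale. Without aged 4, the log2 fold change was 0.01 for Atf3, -0.12 for Egr1, 0.50 for Nr4a2, -0.09 for Socs3, -0.01 for Nfkbia and -0.11 for Ier3, so that those of Egr1, Socs3, Nfkbia and Ier3 turned sign, and none of these was called with or without it. Young 4 was the highest for 6 other genes, Jun, Junb, Egr2, Dusp6, Ier5 and Rhob, against 8.77% of all tested genes. Aged 5 was the highest for 0 of the 30, against 16.1% of all tested genes.

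Other measures also stood at an extreme in aged 4. Its 12 early cytokines and chemokines summed to 7450 normalized counts, the highest of the 12 samples, against 5209 to 6506 in the other aged samples and 5238 to 5793 in young samples. The highest level of 6 of the 9 tested ones was in aged 4, among them Tnf, Il1b, Ccl2 and Cxcl10. Its 6 monocyte markers summed to 156, also the highest, against 110 to 149 in the other aged samples and 58.9 to 121 in young samples. This held for the sum alone, since none of the tested ones, Ccr2, Plac8 and Chil3, was highest in aged 4. Its summed endothelial and pericyte markers, of which Tek and Rgs5 were at 0 in all samples, were the lowest of the 12 at 1344. Pecam1 made up 947 of this, its lowest value of the 12 samples. Cdh5 went the other way, with its highest value of the 12 in aged 4 at 69.1, and Kdr and Pdgfrb were at neither extreme there. Its 8 lymphocyte markers were all at 0, while the most in any sample was 24.6. The part of these in the levels of the early genes was not tested.

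**Figure D4:**
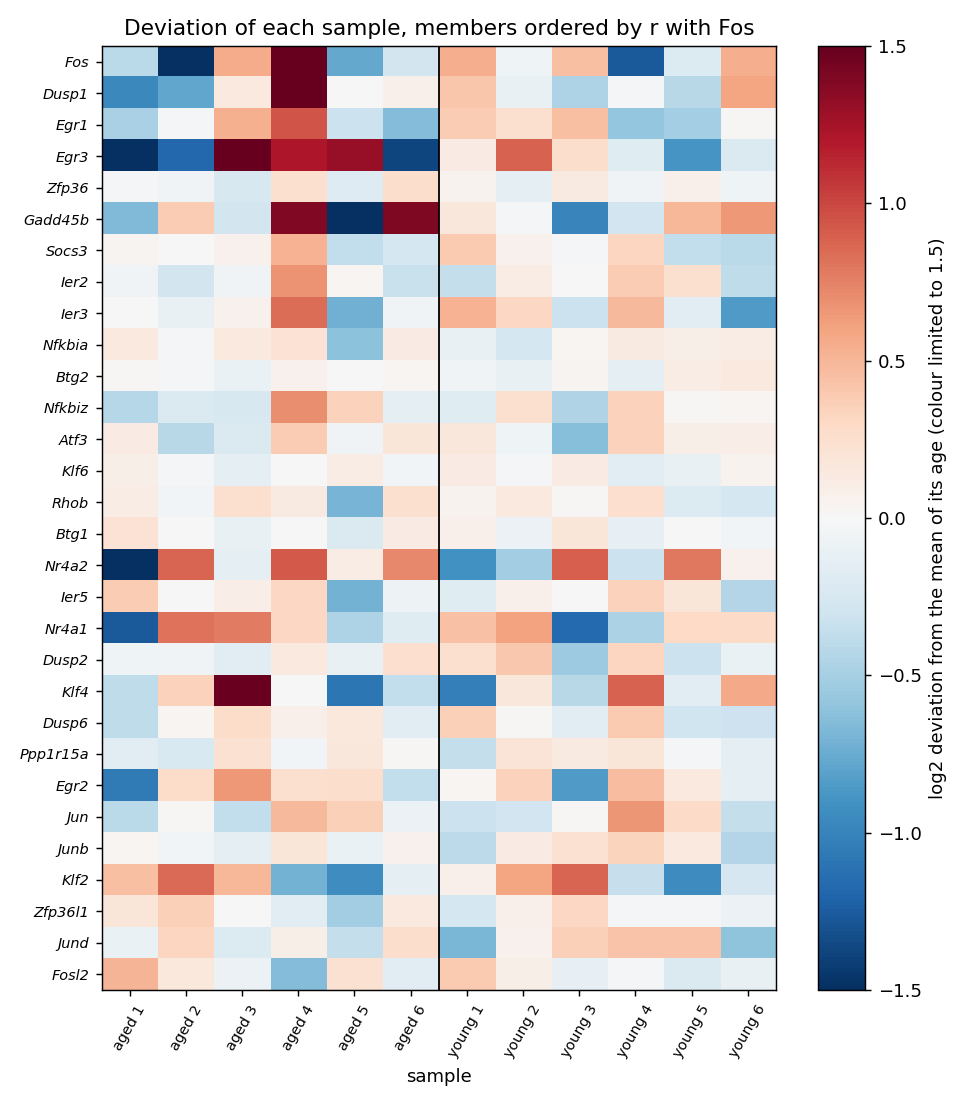
Deviation of each sample from the mean of its age on the log2(normalized count + 1) scale for the 30 tested genes, aged samples left of young samples, genes ordered by their correlation with Fos, colour limited to 1.5. The column of aged 4 is red for most genes, 25 of 30, while Jun and Junb are high in both aged 4 and young 4 and Fos is low in young 4.

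The early genes are known to be induced together, so their covariation with Fos was tested apart from age, on log2 values centred on the mean of each age. None of the 29 relations passed the adjusted threshold by Pearson's r or by Spearman's rho. Dusp1 had the highest r with Fos, 0.779 over 12 samples (permutation p = 0.0224, adjusted p = 0.325, rho = 0.685 with p = 0.0275 and adjusted p = 0.398). Egr1 followed with r = 0.730 (permutation p = 0.0127, adjusted p = 0.325, rho = 0.762 with p = 0.0111 and adjusted p = 0.323). Without aged 4 and young 4, the samples farthest from the median of Fos, r was 0.547 for Dusp1 (permutation p = 0.13) and 0.342 for Egr1 (permutation p = 0.417). Without aged 4 alone it was 0.453 for Dusp1 and 0.518 for Egr1.

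Within the ages, the r of Egr1 with Fos was 0.729 in the 6 aged and 0.795 in the 6 young samples, and that of Dusp1 was 0.883 in aged and 0.309 in young samples. Jun had an r of -0.05 over the 12 samples, with 0.355 in aged and -0.867 in young samples, and Ier2 had 0.866 in aged and -0.863 in young samples. Young 4 was the lowest of the 12 samples in Fos and the highest in Jun. Fosl2 had the lowest r of all, -0.594 (permutation p = 0.11, adjusted p = 0.88). The median r with Fos was 0.159 over the 29 genes and 0.011 over all 11578 other tested genes. All of these points share libraries and normalization.

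**Figure D5:**
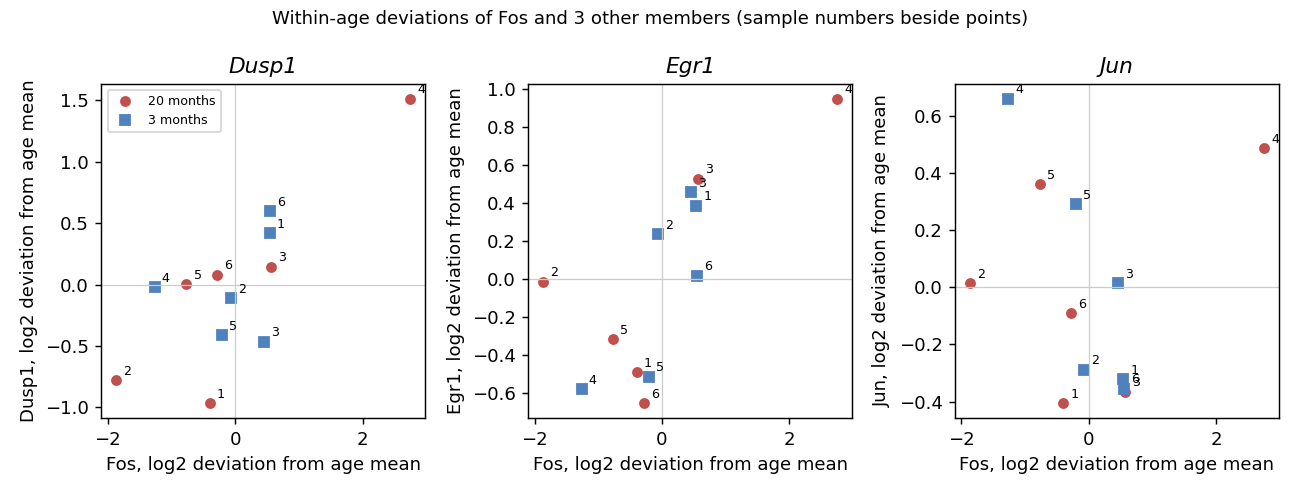
Deviation from the age mean of Fos (x axis) against that of Dusp1, Egr1 and Jun (y axes), all on the log2(normalized count + 1) scale, with aged samples as red circles and young samples as blue squares, each with its sample number. Aged 4 lies far to the right in each panel, where it is also high for Dusp1 and Egr1, and Jun has an r of -0.05.

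Genes of the same programme outside the 32 were examined with a longer list. Of 77 further early response genes, 60 were tested, and 0 were higher and 1 lower with age, against 1.27% and 0.458% of all tested genes. The 1 was Klf11, a repressor of the Krüppel-like family induced by TGF-beta, which fell to 304 ± 36.8 normalized counts in aged samples (range 261 to 360), against 458 ± 54.4 in young samples (range 382 to 508). Its ages did not overlap, and the log2 fold change was -0.59 (adjusted p = 0.0114, limma), although it was not called by limma or edgeR in the 8 samples with 1 library. Bcl6, a repressor of inflammatory genes, had 774 ± 142 in aged and 494 ± 175 in young samples (log2 fold change 0.70, adjusted p = 0.078, limma). It was called on leaving out young 1 or young 2 and by DESeq2 in the 8 samples with 1 library. Of the 38 upstream kinases and factors, such as Srf, Creb1 and the MAP kinases, all were tested and 0 were called in either direction. The smallest p among them was that of Mkl2, a coactivator of serum response factor, with 413 ± 97.0 in aged and 302 ± 43.7 in young samples (log2 fold change 0.43, adjusted p = 0.239, limma). In the same fit 19 of these 38 log2 fold changes were above 0.

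Most of the 32 genes were compact in the GENCODE M21 annotation of GRCm38. Spans run over all annotated transcripts of a gene, while exons were counted in a single transcript. Of the 32, 25 spanned under 10 kb, while others spanned more, such as Dusp1 with 56.5 kb and Atf3 with 47.7 kb. The span of Dusp1, chr17:26505590-26562128, reaches well upstream of the promoter window printed above. The median gene span was 4.25 kb, against 24.1 kb over the tested genes with values, and the median number of exons was 2.5, against 9. All 32 had values, as had 10638 of the 11579 tested genes. Btg2 lies on the minus strand at chr1:134075170-134079120 with 2 exons. Fos lies on the plus strand at chr12:85473890-85477273 with 4 exons. Their 3′ untranslated regions had a median length of 1195 bases, against 939. On the transcribed strand, at least 2 copies of ATTTA, the core of the AU-rich elements that Zfp36 proteins bind, were found there in 25 of 32 (78.1%), against 45.8% of tested genes. The longer form TTATTTATT, which contains the shorter, was found in 7 of 32 (21.9%), against 7.07%. Fos had 4 copies of ATTTA, Dusp1 had 4 and Btg2 had 5. A match is a description of the sequence, not of decay, and longer regions hold more matches.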

How the data were processed

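The authors deposited normalized counts, treated here as a signal, with 1 column per sample. Demultiplexing (bcl2fastq), trimming (fastx_trimmer), alignment (STAR), counting (samtools) and the authors' own test (DESeq2) are named in the series' design text, and mm10 in the submitters' processing notes. The sources used here name neither tool versions nor a gene annotation. In the 8 samples with 1 library each value divided by the smallest step came within 0.1 of a whole read, so reads were recovered there. In the 4 samples with 2 libraries low values matched a combination of 2 steps within 0.0005, and depth was estimated assuming equal normalized totals. The table had turned 27 symbols into dates.

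Values were taken as log2(normalized count + 1), which understates changes of low genes, and tested where at least 6 samples reached 10, with limma 3.58.1 in R 4.3.3, two-sided, with a trended prior variance, and p-values were adjusted by Benjamini-Hochberg over 11579 genes at 0.05. The relation to Fos was tested by 100000 permutations within age, two-sided, adjusted over 29 genes. Alternatives were other pseudocounts (5 and 0.1), no filter or a mean of at least 50, median-ratio and quantile scaling, samples left out, robust empirical Bayes, the sample number as a block, and edgeR 4.0.16 and DESeq2 1.42.0 on the recovered reads. The scripts were tested on simulated data. Deviations of same-numbered samples of the 2 ages had an r of -0.121 to 0.107, and the ages were not paired in the main fit. These correlations cannot tell whether some same-numbered samples shared a preparation. The 32 genes and the other lists were chosen with earlier results of these data known. Genes are given with their lowest, median and highest values where they were called or among the 14 smallest p, and also Fos, Jun, Egr1, Atf3, Dusp1 and Nfkbia. Promoters come from RefSeq (GRCm38.p6), and none was printed from chromosome 18.

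Of the other lists, each printed with its result here or above, microglial markers had 10 genes tested, with 1 called lower, Fcrls. None was called among 4 tested markers of neurons, 4 of the oligodendrocyte lineage (sums of 2646 to 3544 in aged and 2475 to 3393 in young samples), 4 of endothelial cells and pericytes (1344 to 2180 in aged and 1521 to 2065 in young samples), 6 of border macrophages (192 to 738 in aged and 223 to 398 in young samples), 3 of monocytes and 5 of the choroid plexus (451 to 3547 in aged and 270 to 1304 in young samples). Log2 fold changes were above 0 for 5 of 6 border macrophage (median 0.82), all 3 monocyte (0.69) and all 5 choroid plexus markers (1.21). They were above 0 for 1 of 4 neuronal (median -0.37), 2 of 4 oligodendrocyte (0.03) and 2 of 4 endothelial and pericyte markers (-0.01). The part of these in the results was not tested. The neutrophil list rested on Csf3r, which microglia also express, and no lymphocyte marker was tested.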

Additional observations from a re-analysis of the deposited data

Results flagged for a closer look

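A sample far from the others of its age, by the gap to its nearest neighbour as a share of the whole range of the 6 samples, was found in 7 of 64 combinations of gene and age, of which 2 are those of Nr4a3, at 0 throughout. Chance gives about 1 in 20 for values spread as a normal distribution. Over the 30 tested genes alone 6 of 60 combinations stood out this way, against 5.71% of the combinations of all tested genes, and 4 of the 7 were in aged 4. In aged 4, Fos had 469 normalized counts against 102 in the next aged sample (gap share 0.814), and Dusp1 had 509 against 197 (0.747). Ier2 had 586 there against 375 (0.719), and Ier3 had 168 against 98.1 (0.627). In aged 3, Klf4 had 71.8 against 32.2 (0.655). Nfkbia was lowest in aged 5, with 2250 against 3383 (0.648). In young 5, Fosb had 4.53 normalized counts against 0.440 in the next young sample (0.903), at a level of few reads. The cause of these differences was not tested.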

How the results depend on the processing

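In the fits that left out 1 sample, 0 of the 32 genes were higher and 1, Btg2, was lower in every fit, 0 followed Fos, and 1 to 2 other early response genes were called. Over all tested genes the count of higher ones ran from 102 to 175 and that of lower ones from 27 to 60. The lower ones numbered 35 on leaving out aged 2, young 1 or young 4, 32 for young 2, 27 for young 5 and 30 for young 6. Limma on the 8 samples with 1 library gave 0 of the 32 lower, 67 of all genes higher and 11 lower, and 0 other early genes. EdgeR on the recovered reads gave 0, 76, 15 and 0 in that order. DESeq2 gave 2 other early genes, Klf11 and Bcl6. With the sample number as a replicate block in limma, 0 of the 32 and 30 of all genes were lower, and the adjusted p of Btg2 was 0.059. Of the 6 aged samples, 2 correlated best with the young sample of their own number. Whether same-numbered samples were prepared together was not tested. Btg2 was called in 21 of 24 fits.

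Over all combinations of a single gene and an alternative, 44 turned the sign of the log2 fold change, none of them of a called gene, and the cause was not tested. In the 8 samples with 1 library, Jund came to 0.033, Nfkbia to -0.067 and Rhob to -0.017 by limma. Nfkbia came to -0.036 by edgeR and -0.035 by DESeq2, and Ier5 to 0.032 and 0.033. Ier5 came to 0.089 without aged 5 and aged 6, and Ier3 to -0.0074 after quantile scaling. On leaving out 1 sample, the ranges that crossed 0 were -0.043 to 0.168 for Atf3, -0.080 to 0.415 for Dusp1, -0.137 to 0.0026 for Dusp6, -0.117 to 0.203 for Egr1, -0.519 to 0.210 for Gadd45b, -0.111 to 0.203 for Ier3, -0.196 to 0.033 for Ier5, -0.215 to 0.0084 for Jund, -0.110 to 0.266 for Klf2, -0.046 to 0.014 for Klf6, -0.019 to 0.157 for Nfkbia, -0.052 to 0.141 for Rhob, -0.091 to 0.092 for Socs3 and -0.022 to 0.152 for Zfp36l1. Fosb, Nr4a2 and Nr4a3 had few or no reads in most samples, and the part of depth in this was not tested.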

Other observations

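Heat shock chaperones, which refold damaged protein, were listed together with Hsf1, a heat shock factor and no chaperone. The tested genes of this list were all on one side of 0 without a call. Of the 14 measured, 13 were tested, 0 were called higher or lower by limma, and 3 had an unadjusted p under 0.05. All 13 log2 fold changes were above 0, with a median of 0.21, against 0.0016 over all tested genes. Hsph1, a co-chaperone of Hsp70 proteins, had the smallest p, with 1026 ± 368 normalized counts in aged and 643 ± 287 in young samples (log2 fold change 0.70, adjusted p = 0.257, limma). The summed level was 36341 to 65980 in aged and 30083 to 55970 in young samples, and aged 4 was the lowest aged sample in this sum. Aged 1 was the highest of the 12 samples for 11 of the 13, against 8.13% of all tested genes, with 878 of Hspa1a against 138.8 in the next aged sample. Young 3 was the highest young sample for 12 of the 13. In fits added after seeing the data, the median was 0.16 without aged 1, with 1 unadjusted p under 0.05, and 0.30 without young 3, with 7. All 13 stayed above 0 and 0 were called by limma in both. The part of these samples in the difference was not tested.

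Of 12 early cytokines and chemokines 9 were tested and 0 were called by limma, with a median log2 fold change of 0.22. Il6 had 156 ± 31.8 in aged and 94.7 ± 21.3 in young samples, with ages that did not overlap (log2 fold change 0.72, adjusted p = 0.0586, limma). Cxcl10, an interferon-induced chemokine, had 138 ± 120 in aged and 44.6 ± 19.4 in young samples, with 376 in aged 4 (log2 fold change 1.41, adjusted p = 0.0992, limma). Without aged 4, also added after seeing the data, it was 1.06 (adjusted p = 0.167, limma).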
